A study of Mus musculus with 19 samples.

Results

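Livers of mice labelled KO were compared with livers of mice labelled TG, all kept on a high-fat diet (HFD), in a study of the Kielin/chordin-like protein (KCP). All 3 arrays whose sample titles end in KO and HFD were set against all 4 whose titles end in TG and HFD, which makes 7 of the study's 19 arrays. Every array measured 1 whole liver, and 22180 genes with a single symbol were tested. Wild-type livers on the same diet (WT HFD, 3 arrays) and KO and TG livers on a normal diet (ND, 3 arrays each) served for comparison. Wild-type livers on the normal diet (WT ND, 3 arrays) are given for Mug2, Cyp2b9 and Cyp2b13 only. The mice were 2 to 3 months old and had been on their diet for 4 weeks. The labels do not spell out KO and TG, and only the title of the series names Kcp. The deleted part of the gene, the promoter and cell type that drive a transgene, strain, sex, litter, batch and time of harvest are not given in the labels. Each title carries its own animal number, the sole ground for treating the replicates as separate mice, and p-values measure only the spread between these samples.

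KCP is a secreted protein built of cysteine-rich domains like those of chordin. It binds ligands of the TGF-beta superfamily outside the cell, where it is known to increase signalling by bone morphogenetic proteins (BMPs) through SMAD1 and SMAD5 and to dampen signalling by TGF-beta and activin. In liver, BMP signalling is best known for driving hepcidin, the hormone of iron balance, and TGF-beta for its part in scarring. A high-fat diet loads hepatocytes with triglyceride, which they keep in droplets coated by perilipins.

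The arrays were alike in overall level. Their median log2 values lay between 1.01 and 1.05, and each array's mean correlation with the others of its group lay between 0.971 and 0.978 over all probe sets. Levels are the authors' log2 expression values throughout, and differences are KO minus TG on that scale. A rise or a fall in KO is thus one relative to TG, not to WT. Of 18 hepatocyte markers 0 were called by limma and 2 had an unadjusted p under 0.05, against 2.35% and 13.6% of all genes. Their differences lay between -0.31 and 0.18, and 14 were negative. A count of 0 in 18 is near the share over all genes. Alb, serum albumin, was at 12.35, 12.43 and 12.29 in KO HFD and at 12.43, 12.51, 12.46 and 12.38 in TG HFD. All 7 livers had the pattern of males, with Xist no higher than 0.93 and the Y-linked Eif2s3y no lower than 6.27. TG HFD replicate 2 stood apart from the other 6 arrays: it had an array weight of 0.635 in a limma fit with such weights, against 0.844 or more in the other 6, and its 14 neutrophil markers averaged 2.09, against 0.75 to 0.90 in KO HFD and 0.73 to 0.90 in the other TG HFD arrays.

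Kcp itself was high in every TG liver and low in every KO liver. It was at 1.90, 2.17 and 1.97 in KO HFD, at 5.60, 5.81, 5.52 and 5.73 in TG HFD and at 1.77, 2.51 and 2.42 in WT HFD. The difference between KO and TG was -3.65 (SE 0.18, limma adjusted p = 9.39e-10), which is 12.6-fold more in TG. KO and WT arrays overlapped, at levels where most genes on the array are dim, and the difference of KO from WT was -0.22 (adjusted p = 0.844). Kcp has 1 probe set, whose position relative to any deleted sequence is unknown here, and its level therefore does not check the KO label. It does separate the TG label from both others.

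On high-fat diet 522 of 22180 genes differed between KO and TG at an adjusted p under 0.05 (limma, Benjamini-Hochberg), which is 2.35% of all genes tested. Of these, 323 were higher in KO (1.46% of all genes) and 199 lower (0.897%). Differences of at least 1, that is 2-fold, were found for 119 genes higher and 97 lower in KO, and differences of at least 3 for 8 and 4. The arrays of KO and TG did not overlap in 509 of the 522 called genes, and over all genes they did not overlap in 2690 (12.1%). The count changed with the arrays used. It was 309 without KO HFD replicate 1, 271 without KO HFD replicate 2 and 320 without KO HFD replicate 3. Without TG HFD replicates 1, 2, 3 and 4 in turn it was 377, 353, 598 and 523. The number higher in KO was 212 without TG HFD replicate 2. Each of these fits had 1 array fewer, and the cause of the changes was not tested. With the 7 arrays alone, and hence 5 residual degrees of freedom in place of 13, 156 genes passed. Under quantile normalization 56.9% of the calls were higher in KO, against 61.9% as given above.

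**Figure D1:**
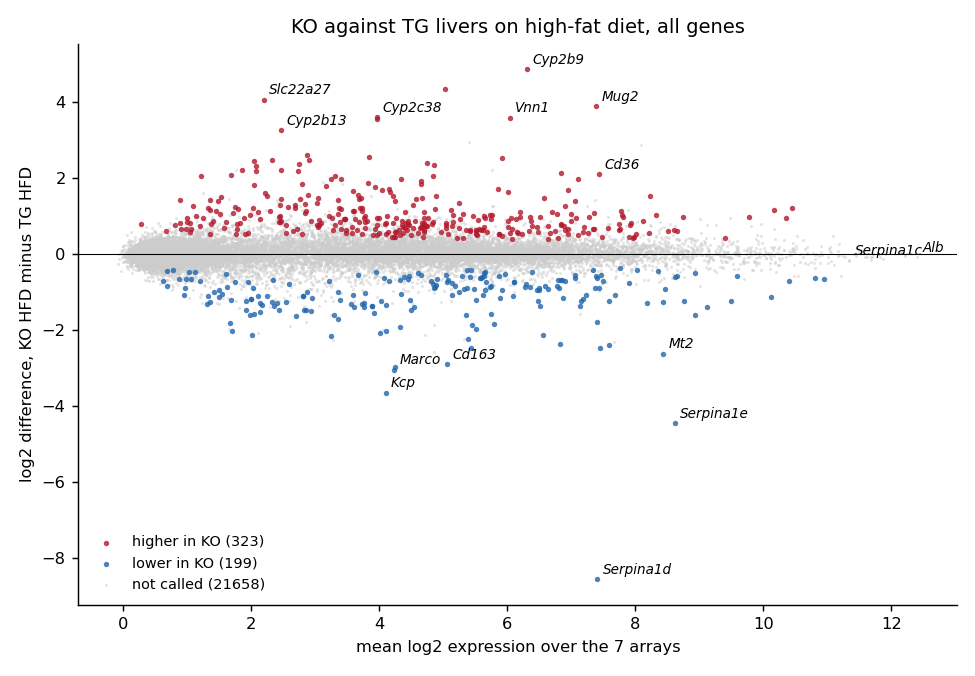
Each point is 1 of 22180 genes. The horizontal axis is the mean log2 expression over the 3 KO HFD and 4 TG HFD arrays and the vertical axis the log2 difference of KO minus TG. Red points are the 323 genes called higher in KO, blue points the 199 called lower and grey points the rest. Serpina1d, at -8.55, lies further from 0 than any other gene.

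The largest falls in KO livers were in the alpha-1-antitrypsin family. Alpha-1-antitrypsin is the main inhibitor of serine proteases in plasma and is made by hepatocytes; the mouse genome carries several copies of its gene side by side on chromosome 12. The promoter windows of 4 copies are shown to set their near-identical sequence beside their unequal differences (RefSeq, GRCm38.p6, 250 bases before to 50 after the annotated start, all on the minus strand). They lie at chr12:103773584-103773883 for Serpina1d, chr12:103956848-103957147 for Serpina1e, chr12:103863570-103863869 for Serpina1a and chr12:103904901-103905200 for Serpina1c. Capitals mark the 12 bases GTTAATATTCAC, which open with the letters of an HNF1 recognition sequence and were chosen after the sequences were read.
Serpina1d: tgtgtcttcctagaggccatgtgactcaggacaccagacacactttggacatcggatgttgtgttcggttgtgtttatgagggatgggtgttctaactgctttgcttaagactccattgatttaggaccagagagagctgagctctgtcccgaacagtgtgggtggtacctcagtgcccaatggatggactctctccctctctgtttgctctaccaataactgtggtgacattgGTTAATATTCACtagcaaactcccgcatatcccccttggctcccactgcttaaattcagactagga
Serpina1e: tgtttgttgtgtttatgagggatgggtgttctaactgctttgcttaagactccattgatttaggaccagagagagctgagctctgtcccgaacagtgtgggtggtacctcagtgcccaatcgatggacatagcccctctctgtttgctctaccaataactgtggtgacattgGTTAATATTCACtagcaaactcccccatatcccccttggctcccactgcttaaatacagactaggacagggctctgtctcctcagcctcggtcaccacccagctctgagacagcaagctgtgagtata
Serpina1a: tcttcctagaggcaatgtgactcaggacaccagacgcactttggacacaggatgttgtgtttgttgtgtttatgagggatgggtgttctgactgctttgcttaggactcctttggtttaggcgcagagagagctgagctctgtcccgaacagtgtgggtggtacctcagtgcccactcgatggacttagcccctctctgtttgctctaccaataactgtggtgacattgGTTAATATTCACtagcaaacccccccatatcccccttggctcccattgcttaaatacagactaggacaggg
Serpina1c: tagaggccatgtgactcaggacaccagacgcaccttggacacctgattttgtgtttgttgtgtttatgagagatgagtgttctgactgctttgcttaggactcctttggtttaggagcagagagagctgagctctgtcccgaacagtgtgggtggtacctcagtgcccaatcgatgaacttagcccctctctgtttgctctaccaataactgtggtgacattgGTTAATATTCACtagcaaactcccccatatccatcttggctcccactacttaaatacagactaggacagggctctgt
On either strand, these 12 letters were found in 5 of 27025 promoter windows (0.0185%), those of Serpina1a, Serpina1b, Serpina1c, Serpina1d and Serpina1e. The Serpina1d window matched that of Serpina1e over 95.8% of aligned positions, that of Serpina1a over 92.6% and that of Serpina1c over 91.4%.

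The copies varied in how far KO lay from TG. Serpina1d was at 2.78, 1.93 and 2.84 in KO HFD and at 11.14, 11.03, 11.14 and 10.99 in TG HFD, a difference of -8.55 (SE 0.28, adjusted p = 1.42e-12). The WT HFD livers, at 10.59, 10.66 and 10.72, lay with TG, and the difference of TG from WT was 0.41 (adjusted p = 0.535). Serpina1e was at 6.28, 6.19 and 5.75 in KO HFD and at 10.38, 10.77, 10.53 and 10.41 in TG HFD, a difference of -4.45 (SE 0.34, adjusted p = 7.08e-07). Here WT HFD, at 7.39, 9.66 and 8.01, lay between the others: KO was lower than WT by 2.28 on the log2 scale (-2.28, adjusted p = 0.00623) and TG higher than WT by 2.17 (adjusted p = 0.00122). Serpina1a fell less in KO, with 6.77, 6.69 and 7.28 in KO HFD against 7.63, 8.00, 7.84 and 7.77 in TG HFD (-0.90, SE 0.17, adjusted p = 0.00782), and lost its call without KO HFD replicate 2 (adjusted p = 0.0591).

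Serpina1c was near the top of the scale in both groups and was not called, with 11.02, 11.34 and 11.35 in KO HFD and 11.40, 11.45, 11.45 and 11.36 in TG HFD (-0.18, SE 0.12, adjusted p = 0.595). Serpina1b was dim in both, between 1.79 and 1.89 in KO HFD and between 2.02 and 2.28 in TG HFD (-0.31, SE 0.14, adjusted p = 0.349). Of 14 measured genes of the family and its neighbours, 4 fell in KO (Serpina1d, Serpina1e, Serpina1a and Serpina9) and 1, Serpina11, rose (1.05, SE 0.21, adjusted p = 0.0121). Over all genes 0.897% were called lower and 1.46% higher. Serpina9 was lost without KO HFD replicates 1, 2 and 3 and TG HFD replicates 1 and 3 (highest adjusted p 0.162), and Serpina11 without KO HFD replicates 2 and 3 (highest 0.0768), so that 2 members fell without KO HFD replicate 2. Probes may be shared among copies this similar, and a value can then hold signal of another copy. On the normal diet the differences were -9.26 for Serpina1d and -4.41 for Serpina1e.

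**Figure D2:**
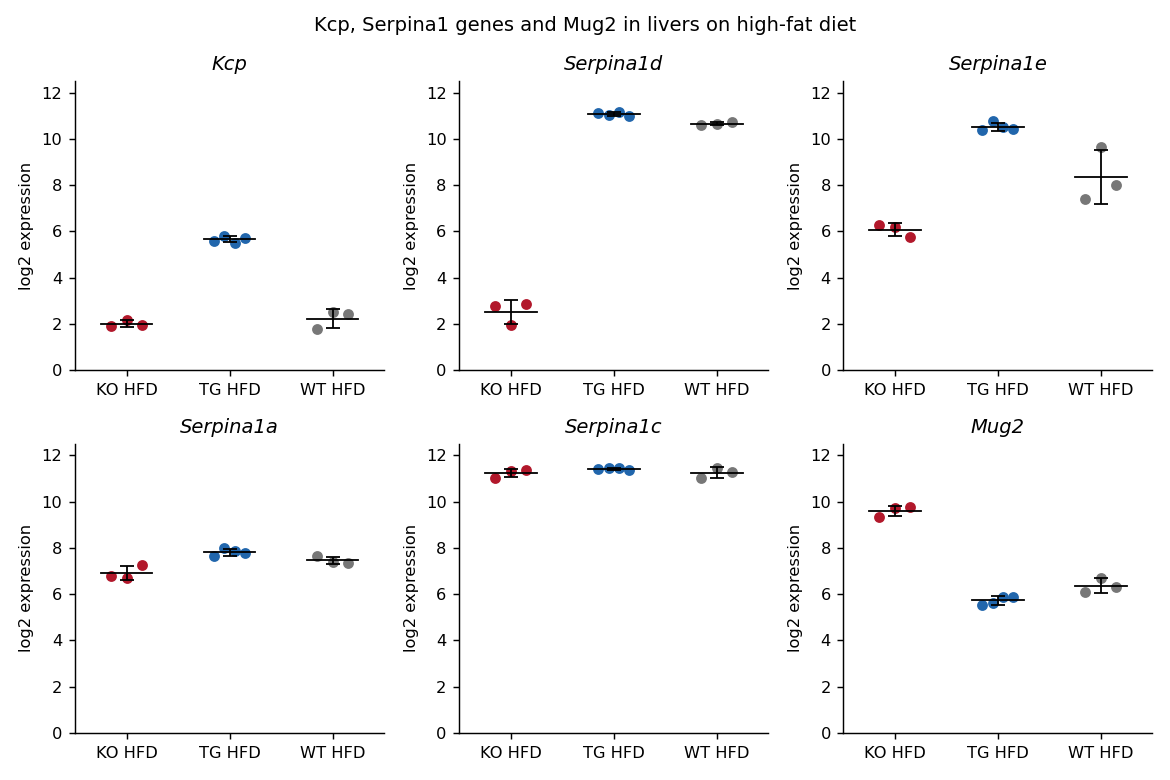
Log2 expression of Kcp, 4 copies of the alpha-1-antitrypsin gene and Mug2 on each array (1 point per liver), for KO HFD, TG HFD and WT HFD from left to right; lines are group means and bars the SD (n = 3, 4 and 3). Serpina1d lies between 1.93 and 2.84 in KO HFD and between 10.99 and 11.14 in TG HFD, while Serpina1c is at 11.02 or above in both.

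A pair of cytochrome P450 enzymes of the Cyp2b subfamily was among the largest rises in KO livers. Cyp2b9 and Cyp2b13 are steroid and drug hydroxylases that are normally far more abundant in female than in male mouse liver. Their promoter windows are shown because they are nearly the same, while WT HFD livers lay between KO and TG for Cyp2b9 and with TG for Cyp2b13 (RefSeq, GRCm38.p6, plus strand, chr7:26173159-26173458 for Cyp2b9 and chr7:26061245-26061544 for Cyp2b13). Capitals mark the 2 positions that differ among 300, which leaves 99.3% identity.
Cyp2b9: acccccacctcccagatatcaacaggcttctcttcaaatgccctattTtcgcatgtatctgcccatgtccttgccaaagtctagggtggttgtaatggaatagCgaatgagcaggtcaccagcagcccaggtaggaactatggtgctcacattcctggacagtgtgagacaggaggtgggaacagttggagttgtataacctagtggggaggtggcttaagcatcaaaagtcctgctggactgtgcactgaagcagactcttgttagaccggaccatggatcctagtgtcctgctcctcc
Cyp2b13: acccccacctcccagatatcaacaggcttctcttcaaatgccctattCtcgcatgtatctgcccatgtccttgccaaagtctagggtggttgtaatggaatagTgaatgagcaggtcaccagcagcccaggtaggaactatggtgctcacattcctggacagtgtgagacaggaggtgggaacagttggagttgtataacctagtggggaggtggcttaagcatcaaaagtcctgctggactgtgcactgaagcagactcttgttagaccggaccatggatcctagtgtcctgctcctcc
Cyp2b9 was at 8.63, 9.59 and 8.99 in KO HFD, at 6.31, 3.78, 3.90 and 2.90 in TG HFD and at 5.83, 6.27 and 6.81 in WT HFD. It rose by 4.84 in KO over TG (SE 0.88, adjusted p = 0.00565), with WT between them and a wide spread in TG. Cyp2b13 was at 4.76, 4.05 and 4.15 in KO HFD and at 0.89, 1.20, 1.09 and 1.08 in TG HFD, a rise of 3.25 (SE 0.49, adjusted p = 0.00121). For Cyp2b13 the WT HFD livers, at 0.81, 1.35 and 0.99, lay with TG (TG minus WT 0.02, adjusted p = 0.993). WT livers on the normal diet spread widely, at 0.71, 4.17 and 3.24 for Cyp2b13 and at 3.80, 8.25 and 7.13 for Cyp2b9. High levels of these genes were thus not confined to KO HFD. With genes this alike, shared probes could mix their signals.

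Of 20 measured female-biased genes 5 rose in KO and 0 fell, with a median difference of 0.05, where 1.46% of all genes were called higher. Mean log2 values were under 2 for 10 of the 20. Beside the Cyp2b pair the genes that rose were Acot3, a peroxisomal acyl-CoA thioesterase (2.03), Hao2, a hydroxyacid oxidase (1.41), and Fmo2, a flavin monooxygenase (0.80). The count was 2 without KO HFD replicate 1, KO HFD replicate 2 or TG HFD replicate 1, and 3 without KO HFD replicate 3 or TG HFD replicate 2. Hao2 was lost without KO HFD replicates 1 and 2 and TG HFD replicate 1 (highest adjusted p 0.0854). Fmo2 lost its call without any 1 of the 7 arrays (highest adjusted p 0.209).

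Of 22 male-biased genes 8 fell in KO and 1 rose, with a median of -0.62. Over all genes tested 0.897% were called lower and 1.46% higher, and the median was -0.005. Cyp7b1, an oxysterol and steroid hydroxylase, was at 8.45, 7.86 and 8.64 in KO HFD and at 9.89, 9.50, 9.31 and 10.16 in TG HFD (-1.40, SE 0.21, adjusted p = 0.00124). Susd4, a regulator of complement, was at 4.40, 4.29 and 4.42 in KO HFD and at 6.54, 5.95, 6.18 and 6.34 in TG HFD (-1.88, SE 0.23, adjusted p = 0.000224). Neither gene overlapped between the groups. The others were Serpina1e, the steroid dehydrogenase Hsd3b5 (-1.97), the pheromone-binding urinary protein Mup20 (-0.65), the complement components C6 (-0.75) and C8b (-1.14) and Ugt2b38 (-2.04), a UDP-glucuronosyltransferase. Elovl3, an elongase of very long fatty acids that is itself male-biased, rose (1.08, SE 0.25, adjusted p = 0.0305) and lost its call without KO HFD replicates 2 and 3 and TG HFD replicate 2. The count of falls was 3 without KO HFD replicate 2, and Hsd3b5, Mup20, C6, C8b and Ugt2b38 lost their calls without it. Xist and Eif2s3y did not pass (-0.20 and -0.07, adjusted p = 0.684 and 0.93).

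Among enzymes that handle drugs and fat-soluble compounds more rose than fell in KO. Of 32 cytochrome P450 and other phase I enzymes 8 rose and 1 fell, with a median of 0.03. Over all genes 1.46% were called higher and 0.897% lower. Cyp2c38, an arachidonic acid hydroxylase, was at 5.55, 6.07 and 6.43 in KO HFD and at 2.10, 0.32, 3.96 and 3.33 in TG HFD (3.59, SE 0.59, adjusted p = 0.00279). WT HFD, at 8.29, 7.62 and 8.14, was above both groups. Its relatives Cyp2c39 (2.19) and Cyp2c29 (0.98) also rose, but the other probe set of Cyp2c29 had a difference of -0.12 (adjusted p = 0.819 over all probe sets), so that Cyp2c29 depends on the probe set. Cyp2d22 (0.81), Fmo1 (0.60) and Fmo2 were the remaining rises, and Cyp2f2 (-0.65), a periportal enzyme, the fall. Fmo1 was lost without KO HFD replicates 1, 2 and 3 (highest adjusted p 0.107), and Cyp2f2 without KO HFD replicate 2.

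Of 18 targets of NRF2, a transcription factor of the oxidant response, and efflux pumps, 3 rose and 1 fell. Over all genes 1.46% were called higher and 0.897% lower. Nqo1, a quinone reductase, was at 4.38, 4.46 and 3.72 in KO HFD and at 2.74, 2.42, 2.06 and 2.35 in TG HFD (1.79, SE 0.23, adjusted p = 0.000225). The exporter Abcc3 (1.40) and the sulfiredoxin Srxn1 (0.92) rose with it, while heme oxygenase, Hmox1, fell (-1.08, SE 0.22, adjusted p = 0.0121). Srxn1 was lost without KO HFD replicates 2 and 3 and Hmox1 without KO HFD replicate 1 (highest adjusted p 0.115 and 0.0684). Nr1i3, the nuclear receptor CAR that controls Cyp2b genes, rose by 1.12 (SE 0.27, adjusted p = 0.0375), a call that held only without TG HFD replicate 4 when single arrays were left out.

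Slc22a27, an organic anion transporter, was at 3.77, 5.37 and 4.37 in KO HFD and close to the bottom of the scale in TG HFD, at 0.28, 0.48, 0.64 and 0.44 (4.05, SE 0.42, adjusted p = 3.55e-05). Mug2, a murinoglobulin that traps proteases in plasma, was at 9.35, 9.70 and 9.76 in KO HFD and at 5.54, 5.61, 5.88 and 5.87 in TG HFD, a rise of 3.88 (SE 0.20, adjusted p = 1.29e-09). Its relatives Mug1 (-0.20, adjusted p = 0.339) and Pzp (-0.08, adjusted p = 0.802) did not pass. WT HFD, at 6.10, 6.71 and 6.29 for Mug2, lay close to TG, and KO was higher than WT HFD by 3.24 (adjusted p = 1.65e-07). In WT livers on the normal diet Mug2 was at 9.68, 9.57 and 9.22, near the level of KO HFD. Among the 28 called genes higher by at least 2 on the log2 scale were also the lectin Clec2h (3.53), the phosphatase Dusp23 (2.59), the tubulin Tubb2a (2.55), the acid phosphatase Acpp (2.46), the neurotrophin receptor Ntrk2 (2.45), the zinc finger gene Zfp960 (2.39), the keratin Krt23 (2.31) and the thymocyte gene Themis (2.21). Of these 8, Tubb2a was lost without KO HFD replicate 2 (adjusted p = 0.0582), and the other 7 kept their calls without each array in turn.

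Several genes that take up fatty acids and store them in droplets rose in KO livers. Of 26 measured genes of lipid droplets and lipid uptake 9 rose and 0 fell, against the 2.35% called over all genes, with a median of 0.51. The count was 4 without KO HFD replicate 2 and 7 without the 2 arrays of lowest weight (TG HFD replicate 2 and WT HFD replicate 1), and 3 with the 7 arrays alone. Cd36, a fatty acid transporter, was at 8.27, 8.78 and 8.82 in KO HFD, at 5.90, 7.23, 6.45 and 6.55 in TG HFD and at 9.11, 8.39 and 9.02 in WT HFD. The difference was 2.09 (SE 0.24, adjusted p = 0.000121), or 4.25-fold, and KO livers lay with WT (KO minus WT -0.22, adjusted p = 0.897). Vldlr, the receptor for very low density lipoprotein, was at 3.95, 4.59 and 4.37 in KO HFD and at 1.93, 1.02, 2.27 and 2.16 in TG HFD (2.46, SE 0.28, adjusted p = 0.000117).

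Among the perilipins, which coat droplets, Plin3 separated the groups most tightly. It was at 5.34, 5.61 and 5.53 in KO HFD and at 4.23, 3.80, 3.97 and 4.15 in TG HFD (1.46, SE 0.12, adjusted p = 1.62e-06). Plin4 was at 3.38, 4.90 and 5.31 in KO HFD and at 3.02, 2.70, 2.04 and 2.49 in TG HFD (1.97, SE 0.34, adjusted p = 0.00402). Plin2, the main droplet protein of hepatocytes, was at 8.71, 8.97 and 9.04 in KO HFD and at 7.51, 7.54, 7.96 and 8.53 in TG HFD (1.02, SE 0.26, adjusted p = 0.0417). The groups did not overlap for any of these, but Plin2 kept its call only without TG HFD replicate 4 when single arrays were left out (highest adjusted p 0.149). Fitm1, which helps droplets form, rose by 1.97 (SE 0.37, adjusted p = 0.00702) and Mogat1, which makes diacylglycerol, by 1.50 (SE 0.33, adjusted p = 0.0183). Both were lost without KO HFD replicate 2 (adjusted p = 0.0506 and 0.116). The apolipoprotein Apoa4 (1.21) and the fatty acid binding protein Fabp2 (0.97) rose as well, and were lost without KO HFD replicates 1, 2 and 3 and TG HFD replicate 1, and Fabp2 also without TG HFD replicate 2.

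**Figure D3:**
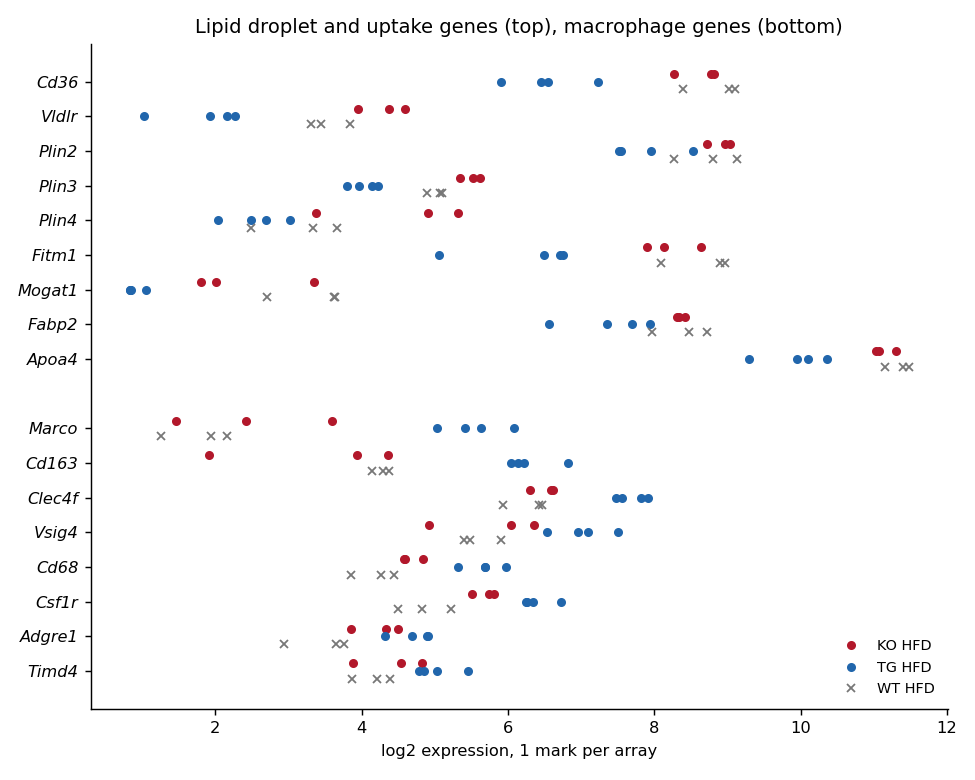
Log2 expression of 9 lipid genes (top) and 8 macrophage genes (bottom), with 1 mark per liver: red for KO HFD, blue for TG HFD and grey crosses for WT HFD. For Cd36 the KO marks (8.27 to 8.82) lie with WT and above TG (5.90 to 7.23), and for Marco the KO marks (1.46 to 3.59) lie below TG (5.03 to 6.08).

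Synthesis and oxidation of fatty acids moved less firmly, and 2.35% of all genes were called. Of 24 genes of fatty acid and triglyceride synthesis 3 rose and 0 fell (median 0.43): the desaturase Scd1 (1.15, with overlapping groups), Elovl3 and the elongase Elovl5 (0.95). That count was 1 without KO HFD replicate 1 or TG HFD replicate 1, 0 without KO HFD replicate 2 or TG HFD replicate 2 and 6 without TG HFD replicate 3. Of 29 genes of fatty acid oxidation and targets of PPARA, the receptor that senses fatty acids, 2 rose and 0 fell (median 0.19). Vnn1, a pantetheinase, was at 7.54, 8.18 and 8.53 in KO HFD and at 3.66, 2.19, 5.54 and 6.63 in TG HFD (3.58, SE 0.69, adjusted p = 0.00795). The other was Acot3, which lost its call without any KO HFD array and without TG HFD replicates 1 and 2 (highest adjusted p 0.101). Without TG HFD replicate 4 the count was 5, and without any 1 of the other arrays except TG HFD replicate 3 it was 1. Cyp4a14, a fatty acid hydroxylase and PPARA target, was at 5.94, 7.69 and 7.59 in KO HFD and spread from 2.08 to 6.43 in TG HFD, so that its difference of 2.93 (SE 0.99) did not pass (adjusted p = 0.149). Pparg, a receptor that drives fat storage, rose by 1.62 (SE 0.33, adjusted p = 0.0108) and was lost without KO HFD replicate 2 (adjusted p = 0.0796).

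Genes of bile acids and glucose changed singly, and 2.35% of all genes were called. Of 22 bile acid genes 3 rose, the hydroxylase Cyp39a1 (1.52), Abcc3 and the steroid dehydrogenase Hsd3b7 (0.64), and 1 fell, Cyp7b1. Hsd3b7 was lost without KO HFD replicates 1, 2 and 3 and TG HFD replicates 1 and 2 (highest adjusted p 0.171). Of 20 genes of gluconeogenesis, glycolysis and glycogen, Gckr, the regulator of glucokinase, rose (0.55, SE 0.10, adjusted p = 0.0073) and Pck1, which feeds oxaloacetate into new glucose, fell (-0.71, SE 0.16, adjusted p = 0.0253). Pck1 was at 9.84, 10.02 and 10.09 in KO HFD and at 10.95, 10.88, 10.38 and 10.58 in TG HFD, and lost its call without the same 5 arrays as Hsd3b7 (highest 0.116). Without TG HFD replicate 3 the list had 4 falls and without TG HFD replicate 4 it had 2. Igfbp2, a binding protein of insulin-like growth factors, was at 6.78, 6.25 and 5.62 in KO HFD and at 8.66, 8.53, 8.79 and 8.45 in TG HFD (-2.39, SE 0.25, adjusted p = 3.55e-05). It was the single member called among 16 genes of the growth hormone and IGF axis, where 3 fell without TG HFD replicate 3 and 2 without TG HFD replicate 4.

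Several macrophage genes fell in KO livers. Of 30 measured markers of Kupffer cells, the resident macrophages of the liver, and other macrophages, 5 fell and 0 rose. Over all genes 0.897% were called lower and 1.46% higher, and the median difference of the list was -0.59. Marco, a scavenger receptor, was at 1.46, 2.41 and 3.59 in KO HFD, at 6.08, 5.03, 5.41 and 5.63 in TG HFD and at 1.26, 2.16 and 1.95 in WT HFD. Its difference was -3.05 (SE 0.36, adjusted p = 0.000165), or 8.28-fold more in TG, and KO minus WT was 0.70 (adjusted p = 0.684). Cd163, a receptor for haptoglobin and hemoglobin, was at 1.92, 3.94 and 4.36 in KO HFD and at 6.83, 6.22, 6.14 and 6.04 in TG HFD (-2.90, SE 0.40, adjusted p = 0.000523). Clec4f, a lectin found on Kupffer cells, was at 6.30, 6.61 and 6.59 in KO HFD and at 7.91, 7.82, 7.56 and 7.47 in TG HFD (-1.19, SE 0.17, adjusted p = 0.000863). The complement receptor Vsig4 (-1.25) and the lysosomal protein Cd68 (-0.99) also fell, and were lost without 3 arrays each, KO HFD replicate 1 and TG HFD replicates 1 and 2 for Vsig4 and KO HFD replicates 1 and 3 and TG HFD replicate 2 for Cd68 (highest adjusted p 0.148 and 0.0753).

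Other macrophage markers had negative differences that did not pass. Csf1r, the receptor that macrophages need to survive, was at 5.51, 5.81 and 5.74 in KO HFD and at 6.73, 6.35, 6.25 and 6.26 in TG HFD (-0.71, adjusted p = 0.0761), and Adgre1 (-0.47, adjusted p = 0.479) and Timd4 (-0.61, adjusted p = 0.181) did not pass either. Over the 30 markers 25 differences were negative. The summed signal of the list was 1342 to 1410 in KO HFD, 1810 to 2465 in TG HFD and 916 to 1126 in WT HFD, with no overlap between the 3 groups. The count of falls was 3 without KO HFD replicate 1 or TG HFD replicate 2 and 8 without TG HFD replicate 4. In bulk liver RNA, fewer cells of a type and less RNA per cell cannot be told apart.

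Some immune effector genes fell as well, and the part of the macrophage markers in these results was not tested. Of 32 interferon-response genes 4 fell and 0 rose (median -0.19), where 0.897% of all genes were called lower. The summed signal of the list was 1209 to 1463 in KO HFD, 1764 to 2264 in TG HFD and 1242 to 1291 in WT HFD. Bst2, which tethers budding virus particles, was at 6.17, 6.02 and 5.91 in KO HFD and at 8.47, 8.15, 8.72 and 8.68 in TG HFD (-2.47, SE 0.25, adjusted p = 3.13e-05). Ifi27, a small interferon-induced protein, was at 6.35, 6.36 and 6.36 in KO HFD and at 7.92, 7.39, 7.82 and 7.78 in TG HFD (-1.37, SE 0.17, adjusted p = 0.000236). Both kept their calls without each array in turn. Irf7, the transcription factor that amplifies the response (-0.86), and Oas1g, a sensor of double-stranded RNA (-1.62), were each lost without 5 arrays, KO HFD replicates 1 and 2 and TG HFD replicates 3 and 4 for both, TG HFD replicate 1 for Irf7 and TG HFD replicate 2 for Oas1g (highest adjusted p 0.168 for each). The count was 2 without KO HFD replicate 1, KO HFD replicate 2, TG HFD replicate 3 or TG HFD replicate 4. The interferon-induced Isg15 (-0.13, adjusted p = 0.855) and Ifit1 (-0.02, adjusted p = 0.991) did not pass.

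Complement genes fell in 7 of 28 cases and rose in 0, with a median of -0.24, where 0.897% of all genes were called lower. The summed signal of the list was 9756 to 12018 in KO HFD, 11933 to 16244 in TG HFD and 8951 to 10191 in WT HFD. C4a, a copy of complement component C4, was at 5.19, 5.54 and 5.69 in KO HFD and at 8.23, 8.30, 7.44 and 7.40 in TG HFD (-2.37, SE 0.26, adjusted p = 7.81e-05), and as a near copy of C4b it may share probes. C2, the protease that C4 recruits, was at 6.25, 6.11 and 6.24 in KO HFD and at 7.36, 7.73, 7.12 and 7.22 in TG HFD (-1.16, SE 0.16, adjusted p = 0.000618). Cd59a, which blocks the membrane attack complex, fell by 1.08 on the log2 scale (-1.08, SE 0.14, adjusted p = 0.000357), and properdin, Cfp, by about as much (-1.08, SE 0.23, adjusted p = 0.0181). The protease C1ra (-0.63), C6 and C8b were the others. The count was 4 without KO HFD replicate 2: C1ra, C6 and C8b lost their calls there, C6 also without KO HFD replicate 1, while Cfp was lost without KO HFD replicates 1 and 3 and TG HFD replicate 2.

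Lymphocyte and acute-phase genes gave few calls, and 2.35% of all genes were called. Of 15 B and plasma cell markers the immunoglobulin chain Ighm (-2.23, SE 0.36, adjusted p = 0.00243) and the joining chain Jchain (-1.19, SE 0.30, adjusted p = 0.0446) fell. Ighm was at 3.78, 4.20 and 4.32 in KO HFD and at 6.30, 7.66, 5.90 and 5.48 in TG HFD, highest in TG HFD replicate 2, the array with the highest neutrophil markers. Only 1 of its 7 probe sets passed over all probe sets (adjusted p = 0.0082), and 4 had a difference between 0 and -0.6. Jchain was lost without KO HFD replicates 1, 2 and 3 and TG HFD replicates 1 and 2, so that the count was then 1. Of 32 cytokines, chemokines and adhesion molecules 2 fell, Ccl9 (-1.24) and the adhesion molecule Vcam1 (-1.16), and the count was 0 without KO HFD replicate 3 or TG HFD replicate 2. Of 24 acute-phase proteins and metallothioneins 1 passed, Mt2, which binds zinc and copper, with 6.50, 5.97 and 8.32 in KO HFD and 9.64, 10.35, 9.27 and 8.97 in TG HFD (-2.63, SE 0.59, adjusted p = 0.0236). It was lost without KO HFD replicates 1 and 2 and TG HFD replicates 1 and 2 (highest adjusted p 0.144). Saa2, a serum amyloid, went the other way without passing (2.86, SE 1.07, adjusted p = 0.214), with 8.66, 9.95 and 10.55 in KO HFD and 6.47, 8.48, 6.54 and 5.94 in TG HFD.

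Further large falls were those of the adhesion molecule Cdh1 (-2.49, SE 0.31, adjusted p = 0.000225), the immunoglobulin segment Igkv5-43 (-2.14), the transporter gene Slc6a16 (-2.13) and Aph1c, a subunit of gamma-secretase (-2.09). These 4 kept their calls without each array in turn. The second probe set of Cdh1 had a difference of -0.63 and did not pass (adjusted p = 0.438 over all probe sets), and the other probe sets of Igkv5-43 had differences of -0.52 and -0.71. Ugt2b38 was lost without KO HFD replicates 2 and 3 (highest adjusted p 0.125).

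Genes of the pathway that KCP acts on were examined by their roles. Of 33 ligands, receptors and SMADs of the BMP and TGF-beta family 0 passed in either direction by limma, 8 with an unadjusted p under 0.05, and the median difference was 0.01. Over all genes tested 2.35% were called and 13.6% had an unadjusted p under 0.05, so that a count of 0 in 33 is near the share over all genes. The largest was that of Inhbe, the activin subunit made by hepatocytes (1.15, adjusted p = 0.103), with 8.29, 8.45 and 8.88 in KO HFD and 6.22, 6.98, 8.32 and 8.04 in TG HFD. Without TG HFD replicate 3 the list had 1 gene higher, and without TG HFD replicate 1 or TG HFD replicate 4 it had 1 gene lower. Of 13 target genes 0 passed, 2 with an unadjusted p under 0.05, with a median of 0.24. Id1, the classical early target of BMPs, was at 2.95, 2.56 and 2.34 in KO HFD and at 2.77, 2.60, 3.09 and 2.53 in TG HFD (-0.13, SE 0.19, adjusted p = 0.845), and the groups overlapped. Hamp, which encodes hepcidin, was at 11.51, 11.30 and 11.26 in KO HFD and at 11.15, 10.13, 11.31 and 10.93 in TG HFD (0.48, SE 0.24, adjusted p = 0.398). Smad7, the inhibitory SMAD that TGF-beta and BMPs induce, differed by 0.24 (SE 0.19, adjusted p = 0.649).

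Of 15 extracellular modulators of BMPs and activins, Kcp fell and Hjv rose. Hjv, hemojuvelin, is the BMP co-receptor of hepatocytes that drives hepcidin; it was at 7.68, 7.52 and 7.49 in KO HFD and at 6.93, 6.67, 7.27 and 7.21 in TG HFD (0.54, SE 0.13, adjusted p = 0.0403). It lost its call without KO HFD replicates 1, 2 and 3 and TG HFD replicates 1 and 2 (highest adjusted p 0.166). Of 15 genes of iron handling Hmox1 alone passed. Of 33 genes of the extracellular matrix 0 passed and 5 had an unadjusted p under 0.05, against 2.35% and 13.6% over all genes. Col1a1, the main collagen of scar tissue, differed by 0.50 (SE 0.40, adjusted p = 0.658).

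**Figure D4:**
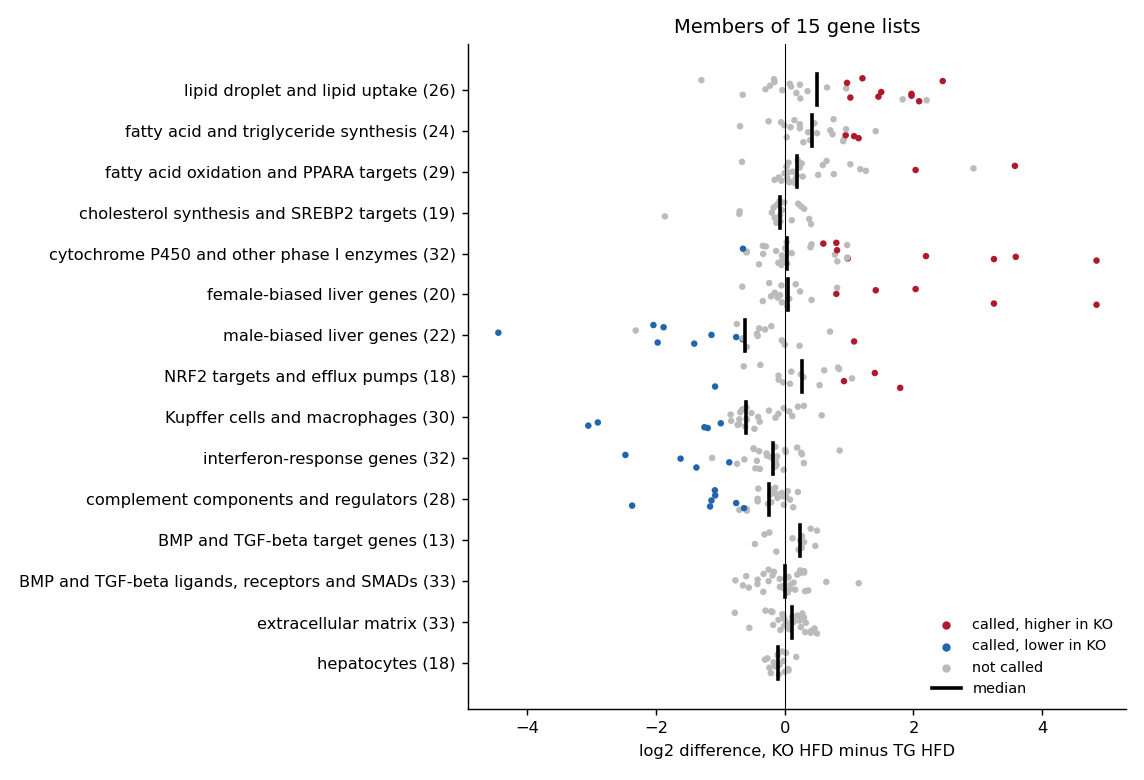
Each point is 1 gene of 15 gene lists (rows, with the number of measured genes), placed by its log2 difference of KO minus TG on high-fat diet. Red points were called higher in KO, blue points lower, grey points neither, and black bars are medians. Lipid droplet genes (median 0.51) lie mostly right of 0 and macrophage (-0.59) and male-biased genes (-0.62) left of it.

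In all, 20 of the 50 gene lists, with 376 members, had 0 members called in either direction by limma, and 55 of those members had an unadjusted p under 0.05, against 13.6% of all genes tested (3018). Among them were 40 cytosolic ribosomal proteins, 38 subunits of the respiratory chain, 29 cell cycle genes, 24 genes of endoplasmic reticulum stress, 19 heat-shock proteins and 19 genes of cholesterol synthesis. The last differed widely between arrays of a group, with a mean log2 level of 6.81, 6.88 and 6.05 in KO HFD and 6.45, 6.17, 7.65 and 6.61 in TG HFD. Markers of stellate cells, sinusoidal endothelium, cholangiocytes, platelets, pancreas and neutrophils also had 0 members called, where 2.35% of all genes were called. Mean log2 values under 2 were found for 8 of 9 cholangiocyte, 7 of 7 platelet, 11 of 12 pancreas and 14 of 14 neutrophil markers. For such short lists of dim genes a count of 0 says little about cell content. Without KO HFD replicate 3, 2 stellate cell genes were called higher, and without TG HFD replicate 1, 1 cholangiocyte gene was called lower. Of the ribosomal proteins 1 was called lower without KO HFD replicate 3. Of the zonation markers, 1 of 15 pericentral genes rose (Cyp2c38, list median 0.55) and 3 of 14 periportal genes fell (Pck1, Cyp2f2 and Cdh1, list median -0.29); the periportal count was 1 without KO HFD replicate 2.

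The same genotypes were also compared on the normal diet, in other animals. There 931 genes were called between KO and TG (4.2%). Of the 522 genes called on high-fat diet, 431 had a difference of the same sign on normal diet, and 162 were called there with that sign, which is 31.0% of the calls on high-fat diet and 17.4% of those on normal diet. A further 10 were called with the opposite sign. Genes lower in KO had a median difference of -0.99 on high-fat diet and -0.69 on normal diet, and 86 of 199 were called on both with the same sign. Genes higher in KO had medians of 0.86 and 0.34, and 76 of 323 were called on both. These medians were taken over genes chosen on high-fat diet, which raises the high-fat value.

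The test of the difference between diets, KO minus TG on high-fat diet minus KO minus TG on normal diet, called 238 genes (1.07%), 134 positive and 104 negative, of which 49 were also called on high-fat diet and 180 on normal diet. Rtn4rl1, a receptor related to the Nogo receptor, changed sign: it was at 3.97, 4.09 and 4.11 in KO HFD against 2.93, 2.37, 3.10 and 3.01 in TG HFD, but at 3.24, 2.84 and 3.25 in KO ND against 4.43, 4.13 and 3.88 in TG ND. Its interaction was 2.24 (SE 0.26, adjusted p = 0.000381). Elovl3 changed sign too (1.08 on high-fat and -1.58 on normal diet, interaction 2.65, adjusted p = 0.00167), as did Pck1 (-0.71 and 0.72, interaction -1.43, adjusted p = 0.00481). For Mug2 the difference was 3.88 on high-fat and 1.47 on normal diet (interaction 2.41, adjusted p = 0.000528), and for Cyp2b13 it was 3.25 and 0.17 (interaction 3.08, adjusted p = 0.0445). Kcp, Serpina1d, Serpina1e and Cd36 did not pass this test, with interactions of -0.13, 0.71, -0.04 and -0.35 (adjusted p = 0.917, 0.557, 0.989 and 0.797).

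Clock genes moved with that test. The clock score (the mean level of 12 evening-peaking clock genes less that of 5 morning-peaking ones) was 1.60 to 2.02 in KO HFD and 1.09 to 1.86 in TG HFD, but 1.11 to 1.45 in KO ND and -1.91 to -1.22 in TG ND. Of the 12 evening genes 8 had a called interaction, against 1.07% of all genes. On high-fat diet 0 of the 12 were called between KO and TG and 4 had an unadjusted p under 0.05. Over all genes these shares were 2.35% and 13.6%, so that a count of 0 in 12 is near the share over all genes. Without TG HFD replicate 3, 1 evening gene was called higher on high-fat diet. Usp2, a deubiquitinase of the clock, differed by -0.47 on high-fat and 3.63 on normal diet (interaction -4.10, adjusted p = 3.34e-05), and the repressor Ciart by -0.75 and 3.43 (-4.18, adjusted p = 0.000219). With the clock score as a covariate, 2 of the 238 genes kept a called interaction, 4 genes were called on normal diet and 345 on high-fat diet. The score separates KO ND from TG ND, and with it the median SE grew 1.69-fold for the interaction, 2.43-fold on normal diet and 1.08-fold on high-fat diet, so that the lost calls say nothing of the part of the clock. The labels give no time of harvest, so that diet-dependent differences and time of harvest cannot be told apart. Without KO ND replicate 2 the interaction called 112 genes, without KO ND replicate 3 it called 125, without TG ND replicate 1 it called 113 and without TG ND replicate 2 it called 139; without KO HFD replicates 1, 2 and 3 the counts were 135, 133 and 149.

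**Figure D5:**
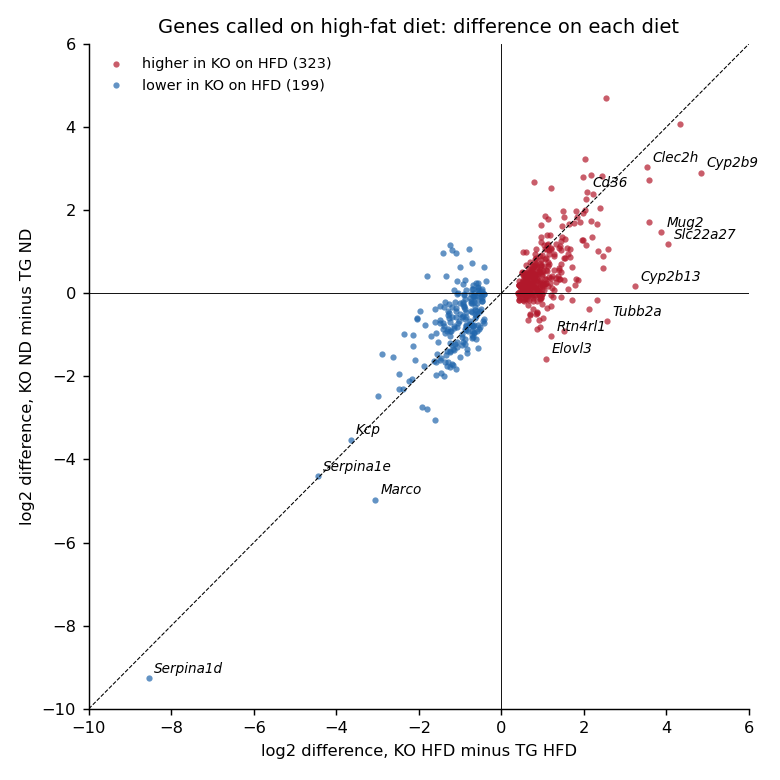
Each point is 1 of the 522 genes called on high-fat diet. The horizontal axis is the log2 difference of KO minus TG on high-fat diet and the vertical axis the same on normal diet, with a dashed line where both are equal; red genes were higher and blue genes lower in KO on high-fat diet. Kcp, Serpina1d and Serpina1e lie near the line and Cyp2b13 and Tubb2a near 0 or below on the vertical axis.

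Wild-type livers on high-fat diet lay between KO and TG for 360 of the 522 called genes (69.0%) and nearer to KO than to TG for 392 (75.1%), against 33.1% and 54.5% of all genes. Since called genes were chosen for a gap between KO and TG, more of them leave room for WT between. Among genes higher in KO, WT was above both groups for 77 of 323 and below both for 15; among genes lower in KO it was below both for 61 of 199 and above both for 9. Among them, WT was above both groups for Cyp2c38 and Elovl3 and below both for C4a and Mt2. The comparisons with WT share arrays with that of KO and TG. Slc22a27, for instance, differed by 0.48 between KO and WT (adjusted p = 0.857) and by -3.57 between TG and WT (adjusted p = 8.97e-05), and Igfbp2 by -0.30 (adjusted p = 0.845) and 2.09 (adjusted p = 9.49e-05).

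Some called genes were close neighbours on a chromosome. The windows of 20 consecutive tested genes given here are those with the most calls on their chromosomes, where 2.35% of all genes were called. Each was picked as the fullest of many windows, and that choice raises its count above this share. On chromosome 12 the window that spans the alpha-1-antitrypsin cluster held 7: Ifi27, Serpina1d, Serpina1a, Serpina1e, Serpina11, Serpina9 and Serpina5. Of these 7 genes 3 were called without KO HFD replicate 2. Serpina5, a protease inhibitor (0.83, SE 0.20, adjusted p = 0.0363), was lost without KO HFD replicates 1 and 2 and TG HFD replicates 1, 2 and 3. Windows of chromosomes 11, 17 and 18 held 5 each, that of chromosome 17 being Ppt2, C4a, Nelfe, C2 and Neu1, in which C4a and C2 are the complement genes described above; without KO HFD replicate 2, 1, 4 and 3 of these genes were called on chromosomes 11, 17 and 18. Chromosome 7 had Axl, Cyp2b13, Cyp2b9 and Cyp2f2 within 20 genes, and chromosome 6 Mug2, the predicted gene Gm10319, the pseudogene Mug-ps1 and M6pr, of which 2 and 3 were called without that array. Windows of chromosomes 1, 8 and 14 also held 4 each. They were Cd84, Copa, Pex19 and Kcnj10, then Ocel1, Bst2, Mvb12a and B3gnt3, then Nkiras1, Ube2e2, Kcnk5 and Anxa7. Without KO HFD replicate 2, 2, 4 and 1 of these genes were called on chromosomes 1, 8 and 14. Over whole chromosomes, 4.55% of the tested genes of chromosome 12 and 4.10% of those of chromosome 17 were called. The share of chromosome Y was 5.88%, which is 1 of 17 tested genes. Of the 40 tested genes nearest to Kcp, 20 on each side, 1 was called, Tspan33 (-1.34, SE 0.26, adjusted p = 0.0075), a tetraspanin of red cell precursors, which lost its call without KO HFD replicate 1. Gene order is that of GRCm38.p6, and genes of these windows outside the lists were named after their values were seen.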

How the data were processed

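RNA of whole mouse liver was hybridised to Affymetrix arrays with 1 colour. The deposited values are log2 expression, 1 per probe set and array, as normalized by the authors. Affy, RMA and limma appear in the submitters' processing notes, without versions or roles. The log base and RMA were inferred from those names and the range of the values, and arrays have no read depth. Of 41345 probe sets, 23521 had 1 symbol in the platform annotation, 1814 several and 16010 none here; 23328 matched a RefSeq table (GRCm38.p6) by Entrez identifier, and 0 symbols changed. Where a gene had more than 1 probe set (1082 genes), the one with the highest mean was used, leaving 22180 genes, 56.5% of them with a mean log2 value under 2. No filter on dim genes was applied.

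All 19 arrays were fitted as 6 group means with limma 3.58.1 (lmFit, eBayes) in R 4.3.3, with 13 residual degrees of freedom. The two-sided p-values of each comparison underwent Benjamini-Hochberg adjustment over all genes, and called means an adjusted p under 0.05; tables were made with Python 3.11.15. Tested on simulated data for KO HFD minus TG HFD with 22180 genes, the fit recovered 26%, 84%, 100% and 100% of 50 genes changed by 0.5, 1, 2 and 3 (log2), with 5 false calls. No set test was run. Alternatives were other sets of arrays, a filter, trend and robust variance, array weights, mean probe sets, quantile normalization, the clock score as a covariate and leaving out each array.

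The named genes are the 15 largest rises and 15 largest falls that were called without overlap (leaving out predicted genes, small RNAs and pseudogenes), up to 4 called members of each gene list, the 8 smallest interactions by p and 16 fixed genes. Further members of the lists were named after their values were seen. The comparison, the 50 gene lists and the rule were chosen with earlier results of these data known; 896 of 1016 listed genes were measured.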

Additional observations from a re-analysis of the deposited data

Results flagged for a closer look

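Among the named genes, 5 had 1 TG HFD array far from the other 3 by Dixon's criterion, where chance gives about 1 in 20 groups and 91 genes were examined. For Ugt2b38, TG HFD replicate 4 stood at 4.19, the others between 1.83 and 2.12, a gap of 0.875 of the range. For Elovl3, TG HFD replicate 2 was at 6.35, the others between 7.01 and 7.12 (0.861). TG HFD replicate 1 was the distant array for Oas1g, at 1.67 (0.845), for Usp2, at 7.28 (0.922), and for Cldn1, a tight junction protein, at 7.68 (0.84).

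Some of the named genes were picked for the smallest p of the limma interaction, which called 1.07% of all genes. That choice raises the share of calls among the named genes, which therefore cannot be set against 1.07%. In 17 of the 91 named genes the difference between KO and TG itself differed between the diets by the limma interaction. It was more positive on high-fat diet for Tubb2a (3.22), Cyp2b13 (3.08), Slc22a27 (2.86), Elovl3 (2.65), Mug2 (2.41), Rtn4rl1 (2.24), Cldn1 (2.20), Vldlr (1.84), Nqo1 (1.59), the angiotensin receptor Agtr1a (1.42), Hsd3b7 (1.29) and Plin3 (0.93). It was more negative for Ciart (-4.18), Usp2 (-4.10), the coenzyme Q binding protein Coq10b (-2.52), the NAD synthesis enzyme Nampt (-2.32) and Pck1 (-1.43). The clock score differed between KO ND and TG ND, and its part in these values was not tested.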

How the results depend on the processing

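The 522 calls (323 higher and 199 lower in KO) became 216 with a difference of at least 1, 156 (97 and 59) with the 7 arrays alone, 261 (155 and 106) with the 10 arrays on high-fat diet, 345 (206 higher) with the clock score as a covariate and 346 (213 higher) without the 2 arrays of lowest weight, TG HFD replicate 2 and WT HFD replicate 1. The interaction, 238 calls, became 371 when genes averaging under 2 (log2) were dropped and 2 with the clock score, and the comparison on normal diet, 931 calls, became 4 with the clock score; the smaller fits have fewer residual degrees of freedom, the clock score widens the SE of the last 2 comparisons by construction, and the cause of the other changes was not tested. Leaving out single arrays gave 271 to 598 calls, 163 to 362 higher and 108 to 236 lower, 112 to 296 interactions and 568 to 1024 calls on normal diet. The filter, trend and robust variance, array weights, mean probe sets and quantile normalization kept the count of calls within 1.5 times. Of the 76 named genes that were called, 35 kept their calls under all alternatives, 44 without each array in turn, and 0 changed direction; of all 522 calls, 176 were kept without each of the 7 arrays. The omission of the 2 arrays of lowest weight and of normal-diet arrays was chosen after seeing the data. No paired analysis was possible because the titles number animals individually and no number links animals of different groups. The number of arrays limits precision, and signals near background understate differences.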
